A study of Mus musculus with 24 samples.

Results

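ARID1B and TCF7L2 were profiled by ChIP-seq in the developing cortex of wild-type mice (CD1 background) at E18.5 (E, embryonic day), and the peaks of both were set against each other. Every peak on chromosomes 1 to 19 of the 2 lists of that stage was taken, 67787 for ARID1B and 52595 for TCF7L2, which is 120382 of the 311477 autosomal peaks in the 6 lists of the series. Overlap by at least 1 base placed each peak in a class. 29376 ARID1B peaks had no TCF7L2 peak, 15824 TCF7L2 peaks had no ARID1B peak, and the remaining peaks formed 34160 loci with both. The series holds 24 libraries, which cover these targets and FOXP1 at this stage and at E15.5, with 2 ChIP and 2 input libraries for each target and stage, and no mutant or treatment enters any of these groups. The ChIP libraries of a target were merged before peaks were called, so each class comes from 1 list per target and no difference below can be set against the spread between replicates. All values are descriptions, and the 95% Wilson intervals given with shares cover counting error only. TCF7L2 appears as TCF4 in the sample labels, an older alias that is also the symbol of a bHLH gene, and the antibody recognizes TCF7L2.

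ARID1B is a DNA-binding subunit of the BAF complex, which uses ATP to move nucleosomes and keeps enhancers and promoters accessible. It shows little preference for particular letters of DNA. TCF7L2 is an HMG-box factor that recruits β-catenin to Wnt target genes, where it recognizes the letters ATCAAAG, and is best known in the forebrain for its role in the thalamus. Both genes are associated with autism, and bulk cortex mixes progenitors, neurons, and other cells, so a locus with both peaks need not carry both proteins in the same cell.

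The sequences at strong distal members with summits in introns or between genes show examples of each class. A peak was called proximal when any of it lay in the 2000 bp before a transcription start site (TSS) and distal otherwise. Each stretch holds the 200 bases around a summit, on the plus strand of GRCm38, and capitals mark matches on either strand to the E-box CATCTG, the NFI motif TTGGCA, the CTCF core CCACNAGNG, and the TCF/LEF site ATCAAAG. The first 3 are ARID1B peaks without TCF7L2, all intergenic and rich in A and T.
chr6:19552042-19552241, nearest Ankrd7: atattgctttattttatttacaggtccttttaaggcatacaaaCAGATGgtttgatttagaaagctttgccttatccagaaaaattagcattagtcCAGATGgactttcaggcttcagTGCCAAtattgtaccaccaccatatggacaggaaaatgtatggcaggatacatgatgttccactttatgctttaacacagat
chr3:48869565-48869764, nearest Pcdh18: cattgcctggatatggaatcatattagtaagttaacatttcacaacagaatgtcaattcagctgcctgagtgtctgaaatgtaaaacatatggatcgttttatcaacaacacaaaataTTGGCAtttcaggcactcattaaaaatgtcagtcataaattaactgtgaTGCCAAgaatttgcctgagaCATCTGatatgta
chr1:144431993-144432192, nearest Rgs21: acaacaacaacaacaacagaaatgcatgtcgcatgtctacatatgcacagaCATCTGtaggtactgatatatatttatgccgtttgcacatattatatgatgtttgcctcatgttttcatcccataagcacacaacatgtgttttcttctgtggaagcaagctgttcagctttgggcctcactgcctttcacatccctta
The next 3 are TCF7L2 peaks without ARID1B, in an intron of Esr1 and between genes.
chr10:4997924-4998123, nearest Esr1: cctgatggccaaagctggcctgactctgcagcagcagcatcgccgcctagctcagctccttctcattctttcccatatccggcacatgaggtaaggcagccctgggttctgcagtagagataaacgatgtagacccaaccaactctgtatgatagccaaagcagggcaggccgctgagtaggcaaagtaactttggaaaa
chr5:25614042-25614241, nearest Xrcc2: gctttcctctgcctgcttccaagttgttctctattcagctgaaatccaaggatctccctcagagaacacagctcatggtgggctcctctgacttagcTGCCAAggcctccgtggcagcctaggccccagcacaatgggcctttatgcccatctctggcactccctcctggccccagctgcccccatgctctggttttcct
chr6:52321103-52321302, nearest Evx1: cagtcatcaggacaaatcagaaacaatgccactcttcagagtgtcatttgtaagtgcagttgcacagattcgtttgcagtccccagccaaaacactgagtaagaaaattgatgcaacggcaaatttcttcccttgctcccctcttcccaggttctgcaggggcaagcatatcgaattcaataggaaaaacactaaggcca
The last 2 lie at ARID1B summits of distal loci with strong peaks of both.
chr17:30497649-30497848, nearest Btbd9: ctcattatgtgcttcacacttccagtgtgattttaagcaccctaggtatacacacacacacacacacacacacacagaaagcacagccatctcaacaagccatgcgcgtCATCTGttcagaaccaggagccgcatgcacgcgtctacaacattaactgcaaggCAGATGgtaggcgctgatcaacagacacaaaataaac
chr10:19277262-19277461, nearest Olig3: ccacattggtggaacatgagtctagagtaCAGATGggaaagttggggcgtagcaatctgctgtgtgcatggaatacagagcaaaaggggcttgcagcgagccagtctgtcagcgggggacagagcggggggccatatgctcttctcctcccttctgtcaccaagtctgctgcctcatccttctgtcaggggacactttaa
CATCTG or NFI matches stand in all 3 of the ARID1B stretches, in 1 of the TCF7L2 stretches, and in both of the shared ones. None of the 8 holds the TCF/LEF letters. These counts depend on which windows are printed and do not describe the classes. Among unprinted ARID1B windows, those near Ppp1r3a and Shisa2 held neither CATCTG nor NFI letters, and that near Pcdh7 held the TCF/LEF letters. Of the unprinted TCF7L2 windows, that near Samd9l held an NFI match and that near Otud7a a CATCTG match. The GC content was 34 to 40% in the first set, 45 to 57.5% in the second, and 47.5 to 54.5% in the last. The higher TCF7L2 peak near Khdc3 had its summit in a coding exon and was not eligible. Another TCF7L2 window, at chr6:3201416-3201615, is not printed because 38.7% of its 20-base words also occur in the annotated ribosomal RNA pseudogene Rn18s-rs5. The shared distal locus ranked highest by both, at chr9:35305352-35305551, lies wholly in repeat-masked sequence and was also passed over.

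Most TCF7L2 peaks coincided with ARID1B, and almost all strong ones did. Of the TCF7L2 peaks, 69.9% (69.5 to 70.3) overlapped an ARID1B peak, and of the ARID1B peaks 56.7% (56.3 to 57.0) overlapped a TCF7L2 peak. The overlap covered 63.9% of the TCF7L2 bases and 57.3% of the ARID1B bases. Peak height, given as −log10 of the authors' MACS2 p-value, ordered this overlap. Among TCF7L2 peaks with a height of 50 or more, all 2094 proximal and all 236 distal peaks met ARID1B, compared with 23.8% of 1065 proximal and 39.4% of 3988 distal peaks below 6. ARID1B distal peaks behaved differently. At heights of 30 to 50, 75.8% (74.3 to 77.3) of 3173 met TCF7L2, and at 50 or more 1673 of 1829 did (91.5%, 90.1 to 92.7). Proximal ARID1B peaks overlapped TCF7L2 in 60.4% of cases below 6 and in 95.8% at 15 to 20.

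**Figure D1:**
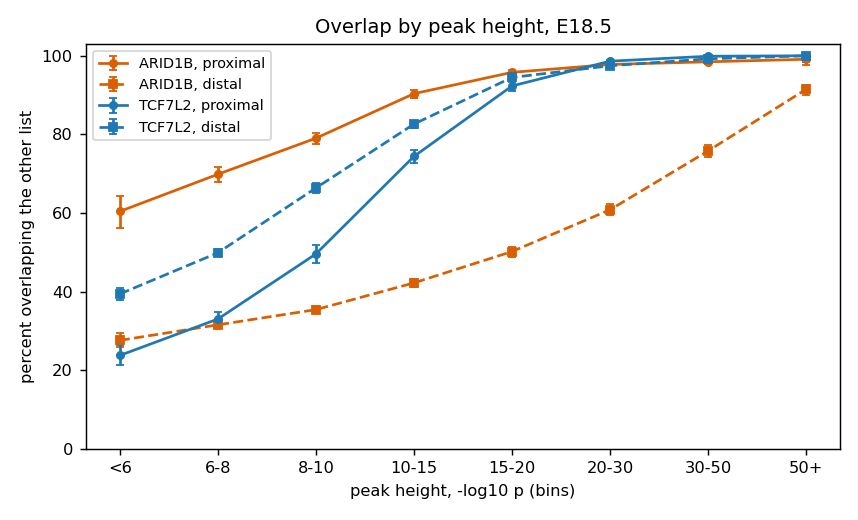
Share of peaks that overlapped a peak of the other list (percent, vertical axis) by peak height in bins of −log10 p (horizontal axis), for proximal (solid lines, circles) and distal (dashed lines, squares) peaks of ARID1B (orange) and TCF7L2 (blue), with 95% Wilson intervals as bars. TCF7L2 reached 100% in the highest bin, whereas distal ARID1B peaks rose from 27.6% to 91.5%.

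The exclusive classes were weak compared with the shared ones, and TCF7L2 without ARID1B was the weakest. Fold enrichment divides the summit reads by a constant genome background, with 1 added to each. Its median was 3.07 (quartiles 2.85 and 3.28) in TCF7L2 peaks without ARID1B and 4.05 (3.28 and 5.91) in those with it. For ARID1B, the medians were 3.79 (3.37 and 4.63) without TCF7L2 and 4.77 (3.79 and 6.45) with it. In reads, a median TCF7L2 summit without ARID1B held 27 over a background of 8.14, close to the lowest called summit of that list at 21. The lowest ARID1B summit held 18 reads over 6.13, and the median without TCF7L2 was 26. A class named as without the other target therefore means without a peak above these limits, not without binding. Only 351 TCF7L2 peaks without ARID1B (2.22%) reached a height of 15, compared with 5935 ARID1B peaks without TCF7L2 (20.2%). The widths followed the same order, with medians of 278 bp and 322 bp in the exclusive classes and 605 bp and 609 bp in the shared ones.

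Shared loci were mostly simple. In 84.3% (83.9 to 84.7) of the 34160 loci, 1 peak of each target met, and 8.82% joined several ARID1B peaks to 1 TCF7L2 peak. The summits of the strongest peaks lay 87 bp apart in the median. Which target was higher depended on place. In the 15091 proximal loci, the median fold enrichment was 5.33 for ARID1B and 6.02 for TCF7L2, and ARID1B was higher in 31.7%. In the 19069 distal loci, the medians were 4.91 and 3.61, and ARID1B was higher in 80.8%. The peak width moved the same way, at 759 bp for ARID1B and 1007 bp for TCF7L2 in proximal loci, and 574 bp and 446 bp in distal ones. The lists differ in depth and antibody, so the change of order between proximal and distal loci is the comparison that both lists allow, rather than a single level.

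The ARID1B class without TCF7L2 had the smallest share of promoters. Only 7.13% (6.84 to 7.43) of ARID1B peaks without TCF7L2 were proximal, compared with 28.6% (27.9 to 29.3) of TCF7L2 peaks without ARID1B and 44.2% (43.7 to 44.7) of shared loci. The place of the TCF7L2 class against shared loci depended on height. With a −log10 p of at least 15 in both lists, each had 70.7% and the ARID1B class 7.78%, and with the 20000 strongest peaks of each list the TCF7L2 class had 65.4%, shared loci 63.3%, and the ARID1B class 6.31%. When sharing meant summits within 200 bp, the ARID1B class had 17.2% and the TCF7L2 class 32.8%. By the position of the summit alone, 6.14% of the ARID1B class lay in promoter bases, which make up 6.24% of chromosomes 1 to 19. The TCF7L2 class had 24.9% there. Introns held 49.7% of the ARID1B class and 40.2% of the TCF7L2 class, against 39.2% of the genome, and intergenic bases held 40.2% and 21.5%, against 50.4%. Coding exons held 0.800% of ARID1B summits without TCF7L2 and 5.84% of TCF7L2 summits without ARID1B, against 1.17% of bases, so the coding-exon share of the TCF7L2 class exceeded both. In summits of either target with the other, it was 3.66% for ARID1B and 3.56% for TCF7L2.

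**Figure D2:**
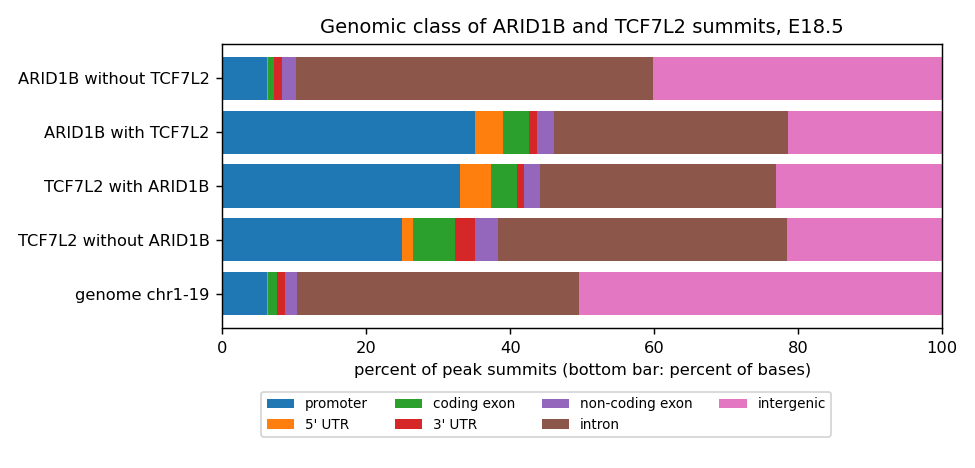
Genomic class of summits (percent, horizontal axis) in the 4 sets of peaks and, in the bottom bar, the percent of bases of chromosomes 1 to 19, each base counted once in the order of the legend. The ARID1B class without TCF7L2 had 6.14% of summits in promoters, near the 6.24% of bases, and the other 3 sets had 24.9% to 35.0%.

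Distal members lay at different distances from genes. The median distance to the nearest TSS was 20686 bp for distal ARID1B peaks without TCF7L2, and 9.69% (9.35 to 10.0) of them lay over 100000 bp away. For distal TCF7L2 peaks without ARID1B, the median was 6597 bp and 1.75% (1.53 to 2.01) lay that far. Shared distal peaks were between these, at 11075 bp by ARID1B summits and 12486 bp by TCF7L2 summits. Base composition differed as well. The median GC content of the 200 bases at the summit was 44.5% for distal ARID1B peaks without TCF7L2, 53.0% for distal TCF7L2 peaks without ARID1B, and 51.5% for shared distal peaks of either list, compared with 42.0% in windows across the genome. Proximal shared peaks reached 64.0% by ARID1B and 65.5% by TCF7L2 summits, whereas proximal ARID1B peaks without TCF7L2 had 47.0%. Repeat-masked letters stood at 9.94% of the distal ARID1B summits and 9.44% of the distal TCF7L2 summits without the other, compared with 33.4% of genome windows.

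Motif letters followed the classes. 18 short motifs were counted on both strands of the 200-base windows, in windows of the same length 2000 bp from each summit toward higher coordinates, and in 1197927 windows spread over chromosomes 1 to 19. These were ATCAAAG (TCF/LEF), CATCTG and CAGCTG (E-boxes of bHLH factors), CCACNAGNG (CTCF), TTGGCA (NFI), TGANTCA (AP-1), TGACGTCA (CRE), GTTGCNNGG (RFX), CCGGAAG (ETS), GCGCNTGCG (NRF1), TAATTA (homeodomain), TGTTTAC (FOX), GGTGTGA (T-box), ATGCAAAT (POU), ACAATGG (SOX), GGGCGGGG (SP/KLF), CCAATCAG (NFY), and AAGATGGCG (YY1). A match is a run of letters, not a proven site. Bases counted for one motif could also count for another.

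The E-box CATCTG, read by proneural factors such as the NEUROD and NEUROG families, was in 36.3% (35.7 to 36.8) of distal ARID1B peaks without TCF7L2, in 14.6% of their neighboring windows, and in 15.1% of genome windows. In distal TCF7L2 peaks without ARID1B, it was in 16.7% (16 to 17.4), beside 16.4% in their neighboring windows. Shared distal peaks had 31.0% by ARID1B and 28.8% by TCF7L2 summits. The NFI motif, bound by factors of late radial glia and deep- and upper-layer neurons, showed the same order, with 25.5% in the ARID1B class, 13.1% in the TCF7L2 class, and 9.86% of genome windows. The homeodomain letters TAATTA were in 12.3% of distal ARID1B peaks without TCF7L2 and 3.24% of distal TCF7L2 peaks without ARID1B, against 7.14% of genome windows. Their neighboring windows had 7.36% and 4.62%, and these letters are all A and T, in which the classes differ. The CTCF core went the other way. It was in 5.79% (5.37 to 6.23) of distal TCF7L2 peaks without ARID1B and 1.90% (1.74 to 2.06) of distal ARID1B peaks without TCF7L2, beside 1.95% of genome windows. This core is rich in G and C, in which the classes and the genome differ, so the comparison is not matched for composition. The TCF/LEF letters were in 3.14% (2.84 to 3.48) of distal TCF7L2 peaks without ARID1B, 3.24% of distal ARID1B peaks without TCF7L2, and 4.02% of genome windows. The neighboring windows had 2.81% and 3.63%. These letters are rich in A and T, and the classes differ in GC content from each other and from the genome, so the genome share is not a matched background. In shared proximal peaks by TCF7L2 summits, the promoter motifs led, with SP/KLF letters in 19.3%, ETS in 9.33%, and NRF1 in 8.31%.

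**Figure D3:**
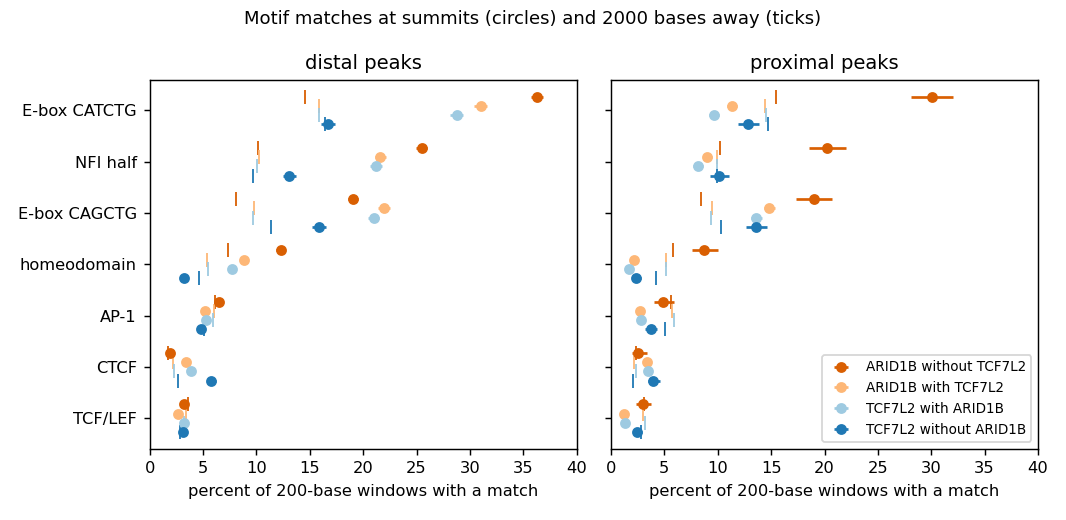
Share of 200-base windows with a match (percent, horizontal axis) for 7 motifs in distal (left) and proximal (right) peaks of the 4 sets, with circles and 95% Wilson intervals at summits and ticks for windows 2000 bp away. The E-box CATCTG reached 36.3% in distal ARID1B peaks without TCF7L2 and 16.7% in distal TCF7L2 peaks without ARID1B.

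The highest exclusive distal peaks differed in height and place. The 10 highest ARID1B peaks without TCF7L2 had fold enrichments of 15.3 to 18.9. The first, at chr6:19551835-19552443, had 134 reads at the summit and lay 685792 bp from the nearest coding TSS, that of Ankrd7. The second, at chr3:48869320-48869899, had 16.7 and lay 885799 bp from Pcdh18, a cell-adhesion protocadherin. Another member stood at -1576219 bp from Pcdh7, a negative distance being upstream of the TSS. Of the 10, 7 were intergenic and 3 intronic, one of them 282510 bp into Dgkb, a diacylglycerol kinase of neurons. The 10 highest TCF7L2 peaks without ARID1B had fold enrichments of 5.91 to 8.76. The first, at chr10:4997749-4998112, lay 61498 bp inside Esr1, the estrogen receptor, with 79 reads. Those nearest to Khdc3, Trim59, Nr4a2, and Kpna4 had summits within 1246 bp downstream of a coding TSS. Among them, the peak at chr2:57111498-57112282 lay in Nr4a2, an orphan nuclear receptor of subplate and claustrum neurons, with a fold enrichment of 5.91.

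The nearest genes of distal peaks without the other target overlapped in part. ARID1B peaks of this kind had 6383 nearest protein-coding genes, which is 30.7% of the 20807 autosomal ones, and TCF7L2 peaks had 5063, which is 24.3%. Both lists shared 2960 genes, which is 46.4% of the first and 58.5% of the second. Genes with 5 or more such peaks numbered 1690 for ARID1B and 508 for TCF7L2. For ARID1B, Tenm2 led with 92 peaks, followed by Auts2 with 82, Zfp608 with 71, Tenm3 with 68, and Adgrl2 with 66. Tenm2, Tenm3, and Adgrl2 encode teneurins and a latrophilin, partners in synaptic adhesion, and Auts2 is a gene of neuronal migration. TCF7L2 peaks without ARID1B at these 5 genes numbered 4, 18, 11, 1, and 3. The 92 peaks nearest to Tenm2 spread over 2722 kb of chromosome 11. For TCF7L2, the leading genes were Gse1 with 63, Dnah8 with 56, Ccdc192 with 33, Cux2 with 31, and Zmiz1 with 28. Cux2 is a homeobox gene of upper-layer neurons, and Dnah8 encodes an axonemal dynein. ARID1B peaks without TCF7L2 at these 5 genes numbered 14, 7, 3, 9, and 19. The density of the TCF7L2 peaks was 53.8 per 100 kb around Ccdc192, 23.5 around Dnah8, 18.2 around Gse1, 15.4 around Cux2, and 4.30 around Zmiz1, compared with 2.32 to 5.76 at the 5 leading genes of ARID1B.

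At the level of genes, ARID1B alone was the rarest class. Of the 20807 autosomal protein-coding genes, 12148 (58.4%) had promoter peaks of both, 951 (4.57%) of TCF7L2 only, 221 (1.06%) of ARID1B only, and 7487 (36%) of neither. The counts depended on height. TCF7L2 only and ARID1B only numbered 2454 and 274 where both lists were limited to a −log10 p from 15 up, 4198 and 108 with the 20000 strongest peaks, and 151 and 40 for peaks of at least 15 with no peak of any height in the other list. The promoters of these classes differed in CpG content. The ratio of observed to expected CpG, taken at the promoter of a gene with the highest ratio, had a median of 0.507 for genes with both, 0.363 for TCF7L2 only, 0.268 for ARID1B only, and 0.179 for neither. The single-target promoters were weak. Their median fold enrichment was 3.50 for TCF7L2 only (range 2.52 to 11.5) and 3.65 for ARID1B only (range 2.81 to 11.2), while genes with both had medians of 6.90 for TCF7L2 and 5.75 for ARID1B.

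The window of 2000 bp shaped the strongest members. All 10 of the highest TCF7L2-only promoters, led by Gm26558 (fold enrichment 11.5), Znrf4 (10.9), Gm9970 (10.7), and Ap4s1 (9.74), had a TCF7L2 peak that overlapped an ARID1B peak lying outside the window. This held for 172 of the 951 genes (18.1%, 15.8 to 20.7) and for 27 of the 221 ARID1B-only genes (12.2%, 8.53 to 17.2). Without them, in a setting chosen after the values were seen, 779 genes had TCF7L2 only and 194 had ARID1B only. The strongest of those 194 was Krtap19-4, a keratin-associated protein gene, with 11.2 and 79 reads. Ccm2l, which acts in blood vessels, had 9.82, Gmnc, a regulator of multiciliated cells, had 7.99, and Ctxn3 had 6.73. Of the 10 highest ARID1B-only promoters, 8 had ARID1B only at E15.5 as well, and Ccm2l and Tmc3 had neither target there.

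The strongest of the 779 were histone genes. Hist1h2ac and Hist1h2bc shared a TCF7L2 peak at chr13:23683857-23684334 with a fold enrichment of 7.22, and Hist1h2ai, Hist1h2bl, and Hist1h3h shared one with 6.35. Between them stood Pitx1, a homeobox gene, with 7.01. Counted after these values were seen, 20 of 67 autosomal genes named Hist1h to Hist4h (29.9%) were TCF7L2 only, beside the 4.57% of all genes, 38 had both, none had ARID1B only, and 9 had neither. The 20 genes rest on 11 distinct peaks, since divergent histone genes share a promoter. At E15.5, 13 of the 20 had both targets and 7 had TCF7L2 only. Histone genes are near-identical copies, and the mapping quality filter of 30 drops reads that fit several copies equally, so single members are uncertain.

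Sets of genes were then read against these shares. Of 30 BAF subunit genes, 29 had promoter peaks of both, and 1 had neither, beside 58.4% and 36% of all coding genes. TCF7L2 ranked higher in 27 of the 29, by a median of 10.7 percentile points (0 being the strongest peak of a list and 100 the weakest). Over all genes with both, the median was 11.3 and the lower quartile 3.71, so most genes leaned to TCF7L2. The largest difference among the 29 was 1 of the 2 exceptions. Bicral, a subunit of the noncanonical BAF complex, had 7.15 for ARID1B and 3.61 for TCF7L2. Arid1b itself had 5.61 for ARID1B (39 reads) and 10.1 for TCF7L2 (91 reads). Tcf7l2 had 5.19 for ARID1B and 6.68 for TCF7L2, and Tcf4, the bHLH gene that shares the label, had 10.2 and 12, at different promoters of the gene. All 3 genes carried both targets at E15.5 also.

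Genes of the Wnt pathway were counted by role, beside 58.4% of all coding genes with both, 4.57% with TCF7L2 only, and 36% with neither. Of 19 Wnt ligands, 7 had both, 6 had TCF7L2 only, 6 had neither, and none had ARID1B only. The 6 were weak, and the highest, Wnt2b, had a fold enrichment of 3.39. Of 18 receptors and co-receptors, 17 had both and Lrp5 had TCF7L2 only, at 4.93, but both targets at E15.5. All 19 genes of signal transduction and of the TCF/LEF family had both. The widest rank difference among them was at Tcf7, which encodes TCF1, with 3.93 for ARID1B and 10.4 for TCF7L2. Fzd7, a Wnt receptor, had 4.63 and 9.41. Of 16 feedback and target genes, 14 had both, Nkd2 had TCF7L2 only (4.60), and Dkk1, a secreted inhibitor, had ARID1B only (3.37). TCF7L2 ranked higher than ARID1B in all 14 with both, by a median of 26.3 percentile points. The median over all 12148 genes with both was 11.3. The direction is common. TCF7L2 ranked higher at 7630 of 8747 promoters with overlapping peaks and a percentile of at most 20 in either list. It also ranked higher at all 24 ribosomal protein genes and all 14 immediate early genes. Axin2, which limits β-catenin, had 7.01 for ARID1B and 37.5 for TCF7L2. Tnfrsf19 had 6.45 and 16.9, Znrf3, which removes Wnt receptors, had 5.33 and 15, and Sp5, a zinc finger factor, had 4.07 and 10.8. At E15.5, Wif1 and Sfrp2 leaned to ARID1B, with differences of -13.5 and -11.1 points, and Rnf43 and Dkk3 had TCF7L2 only. The others of the 14 had both targets there and leaned to TCF7L2. Nkd2 had both at E15.5.

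The TCF/LEF letters were then counted at these promoters. Of the 15 feedback and target genes with a TCF7L2 promoter peak, 6 held ATCAAAG on either strand within the peak, compared with 9.33% of the 13099 coding genes with such a peak. In the 200-base window centered on the summit, it was 2 of 15, and 1.20% of 13099. Peaks of unequal width enter the first count, and a list of 15 allows only a wide interval (19.8 to 64.3% for the whole peak). The 10 sites of these 6 genes are shown with 10 bases on each side, plus strand of GRCm38, and the site in capitals.
Axin2, chr11:108920417-108920443: gccggctgcgCTTTGATaaggtcctgg
Axin2, chr11:108921222-108921248: ggccggcgcgCTTTGATgtgcggggcg
Axin2, chr11:108922406-108922432: aagtttgaagATCAAAGcctctaagtt
Myc, chr15:61984095-61984121: tgtaacgttaCTTTGATctgatcaggg
Nkd1, chr8:88521261-88521287: tccgcctcgcCTTTGATgggccgctgc
Notum, chr11:120661230-120661256: ggcccccgggATCAAAGcggcggcgga
Sp5, chr2:70474809-70474835: gcaaggccccCTTTGATcaggaaaatc
Sp5, chr2:70475002-70475028: agccgctattCTTTGATgattgggtag
Tnfrsf19, chr14:61046251-61046277: acccgcgcagATCAAAGgcaggcgaac
Tnfrsf19, chr14:61046314-61046340: gttgctgcgcATCAAAGgcaaggctga
Along the plus strand and counted from the TCF7L2 summit, the middle of an Sp5 site stood at -8 bp, the Nkd1 site at 88 bp, and the nearest Axin2 site at -192 bp. The Myc site stood at -1559 bp in a peak 4813 bp wide.

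Genes of cortical cell types were counted beside the 58.4% of all coding genes with both. Both stood at 15 of 16 radial glia genes, 11 of 12 intermediate progenitor and proneural genes, 12 of 12 upper-layer genes, 11 of 13 deep-layer and subplate genes, and 23 of 23 synaptic and adhesion genes. Sox2, a factor of neural stem cells, had 4.21 for ARID1B and 7.99 for TCF7L2, and Notch1 had 4.21 and 7.55. Fabp7 had 8.70 and 5.04 and Emx2 had 6.17 and 4.82, the 2 radial glia genes that ranked higher for ARID1B, while 13 ranked higher for TCF7L2. The median difference of the radial glia genes was 6.56 percentile points, beside 11.3 over all genes with both. Neurod4 had ARID1B only, at 3.37. Pou3f1, a POU factor of upper-layer neurons, had 3.09 for ARID1B and 6.79 for TCF7L2. Cntnap2, an adhesion gene associated with autism, was the reverse, at 7.71 and 4.05. Among deep-layer genes, Crym had TCF7L2 only, at 3.83, but both targets at E15.5. The synaptic genes were nearest to 217 distal ARID1B peaks without TCF7L2 and 33 distal TCF7L2 peaks without ARID1B, and the deep-layer genes to 191 and 33, while the upper-layer genes were nearest to 164 and 84 and the Wnt ligands to 10 and 40. Genes of germline, gut, muscle, skin, liver, and pancreas had 40 and 4. Over all genes, the numbers were 27281 and 11302. These counts were not scaled to the length of genes or of the gaps between them.

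Lists of other cells and tissues varied around the shares of all coding genes, 58.4% with both, 4.57% with TCF7L2 only, 1.06% with ARID1B only, and 36% with neither. Of 15 interneuron genes, 12 had both and 2, Lhx6 (3.28) and Nkx2-1 (3.17), had TCF7L2 only. These genes mark cells born outside the cortex. In the 12 with both, TCF7L2 ranked higher by a median of 41.2 points, beside 11.3 over all genes with both, but at E15.5 4 of the 11 with both targets had a negative difference, such as -42.5 for Gad2 and -11.8 for Dlx5. Calb2 had 3.09 for ARID1B and 5.04 for TCF7L2. Of 12 genes of the thalamic region, in which TCF7L2 is abundant, 9 had both and Irx1 (4.82), Gbx2 (3.61), and Six3 (2.96) had TCF7L2 only. At E15.5, Irx1 and Gbx2 had both targets, and Six3 had TCF7L2 only. Of 11 glial genes, 4 had both, Aqp4 had ARID1B only (4.49), and Olig1 had TCF7L2 only (3.72). Of 12 endothelial genes, 3 had both and Kdr (4.16) and Sox17 (3.50) had TCF7L2 only. At the earlier stage, Kdr had both targets and Sox17 had TCF7L2 only. The genes of germline, gut, muscle, skin, liver, and pancreas had both in 2 of 20 and neither in 16. All 24 ribosomal protein genes had both, as did 21 of 22 entries for oxidative phosphorylation genes, the exception being a second annotation entry of Atp5o, whose first entry had both. Among genes of neuronal activity, both stood at 14 of 14 immediate early genes and 12 of 14 ion channel genes.

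Autism-associated genes of the study's list of 102 were matched by symbol (100) or synonym (2). Both targets stood at 97 promoters (95.1%), beside 58.4% of all coding genes. For its human cortex data, the study reports that brain expression accounted for how enriched autism-associated genes were at open loci with all its regulators. Expression was not tested here. Scn1a, a sodium channel gene, had ARID1B only, with 3.79 and 26 reads. Dscam, an adhesion gene, had TCF7L2 only with 3.39, and Mkx had TCF7L2 only with 4.27. Gigyf1 and Tek had neither. At E15.5, Scn1a and Dscam had both targets, and Mkx had TCF7L2 only there too. The 97 had median percentiles of 16.7 for ARID1B and 7.53 for TCF7L2, beside 23.5 and 12 for all genes with both. The strongest peaks of a gene can lie at different promoters. This was so for Pax5, which differed most toward TCF7L2 (3.51 for ARID1B and 6.46 for TCF7L2). Coro1a differed most toward ARID1B (6.73 and 5.04). They were nearest to 549 distal ARID1B peaks without TCF7L2 and 204 distal TCF7L2 peaks without ARID1B, beside 27281 and 11302 over all genes.

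Ranks of shared peaks were compared at promoters and at distal sites. Among the 10000 strongest proximal peaks of each list, 83.1% of ARID1B and 81.4% of TCF7L2 peaks intersected, and Spearman's rho across the 8333 intersecting pairs was 0.48. Among the 8000 strongest distal peaks, 43.0% and 43.9% intersected, with a rho of 0.25 across 3531 pairs. For the 4000 strongest peaks of each kind, the values were 0.26 and 0.23. Peaks are not independent replicates, and both lists share tissue, mappability, and base composition. At the 12148 genes with both, the percentile difference, ARID1B minus TCF7L2, had a median of 11.3 (quartiles 3.71 and 20.7), so promoter peaks ranked higher in the TCF7L2 list at most of these genes. TCF7L2 ranked over 30 points higher at 1485 genes and ARID1B at 90.

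**Figure D4:**
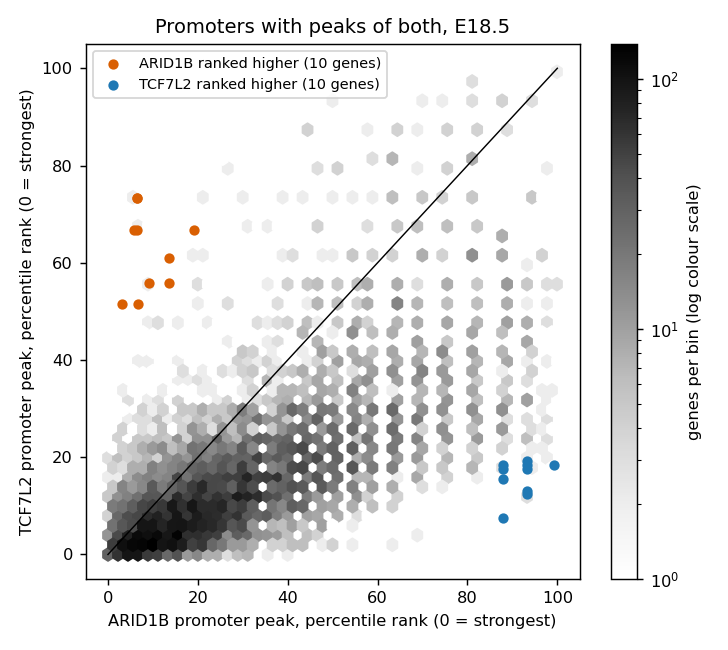
Percentile rank of the strongest promoter peak of ARID1B (horizontal axis) and TCF7L2 (vertical axis) for the 12148 coding genes with both, 0 being the strongest peak of a list, with gray hexagons shaded by the number of genes on a log scale and a line of equal rank. Among the 8747 genes with overlapping peaks and a percentile of at most 20 in either list, the 10 with the largest difference toward ARID1B (orange) lie at TCF7L2 percentiles of 51.5 to 73.4, and the 10 toward TCF7L2 (blue) at ARID1B percentiles of 87.8 to 99.2.

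The promoters with the largest differences were taken from 8747 that had overlapping peaks and a percentile of at most 20 in either list. Toward ARID1B, Mgat4c, a glycosyltransferase gene, and Upk3a led, each with 8.56 for ARID1B (60 reads) and 3.07 for TCF7L2 (27 reads). Nhlh2, a neuronal bHLH factor, had 8.56 and 3.17, and Gcg, the glucagon gene, had 8.42 and 3.50. The others were Wee2, Olfr459, Slc26a7, Scml4, Gbp7, and Sln, with ARID1B at 6.17 to 10.4 and TCF7L2 at 3.17 to 3.50. Toward TCF7L2, Lrp4, which binds Wnt inhibitors, had 2.81 for ARID1B (19 reads) and 5.80 for TCF7L2 (52 reads). Pou3f1 had 3.09 and 6.79. Ube2t, Lipt1, Dock1, Gpn1, Sdc4, Hcst, and D930007J09Rik were also among the 10, with TCF7L2 at 5.69 to 7.88. At E15.5, in other libraries, 4 of the 10 promoters toward ARID1B had both targets and the same direction, and the other 6 had ARID1B only and hence no rank difference. Of the 10 toward TCF7L2, 8 kept it, Sdc4 turned to ARID1B by 21.9 points, and Hcst had ARID1B only. Several of the 8 had small differences at E15.5, such as Lipt1 with 2.87 points and D930007J09Rik with 5.24. Across the 11680 genes with both targets at both stages, 8435 had the same sign at both, which is a high count in any case where most genes lean to TCF7L2, and the difference at E18.5 and that at E15.5 had a Spearman's rho of 0.39.

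Distal shared loci reached larger differences, under the same limit of 20. The locus at chr8:54502865-54503517, at -26389 bp from Asb5, had 11.1 for ARID1B (78 reads) and 2.52 for TCF7L2 (22 reads). The next, at chr11:38600801-38601550, was nearest to Tenm2 at -1365212 bp and had 10.5 and 2.52. Loci nearest to Id4, an inhibitor of bHLH factors, and Cdh18, a cadherin, each had 12.3 and 2.63. The other loci toward ARID1B were nearest to Adamtsl1, Pdss2, Sis, 1700010I14Rik, Tanc1, and Intu, with ARID1B at 9.40 to 10.2. Toward TCF7L2, the locus at chr5:115168434-115169381 near Mlec had 2.81 and 7.66, and the locus at chr10:50902722-50905122, 8271 bp downstream of the Sim1 TSS, had 3.09 and 8.65. The highest TCF7L2 value of this group was at chr19:59417871-59418524, at -40174 bp from Emx2, a homeobox gene that patterns the cortex, with 11.6 (105 reads) for TCF7L2 and 3.23 (22 reads) for ARID1B. Arhgap40, Foxl2, Abt1, Galnt2, 1700001O22Rik, Pou3f1, and Zfp362 were nearest to the rest, with TCF7L2 at 5.58 to 9.20.

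Peaks of the earlier stage, from libraries that the classes did not use, separated the classes too. To hold height level, peaks with a −log10 p of 8 to 15 were compared. Of the distal ARID1B peaks without TCF7L2, 80.5% (79.8 to 81.2) of 13263 met an ARID1B peak at E15.5 and 2.08% (1.85 to 2.34) met a TCF7L2 peak. Of the distal TCF7L2 peaks without ARID1B, 33.7% (32.0 to 35.4) of 3073 met a TCF7L2 peak at E15.5 and 37.9% (36.2 to 39.6) met an ARID1B peak. The median height of this class, 7.39, lies below the band, and over all 11302 of its peaks the shares were 17.9% and 27.5%. For all 27281 distal ARID1B peaks without TCF7L2, 75.7% met ARID1B and 2.38% met TCF7L2 at E15.5. Shared distal peaks by ARID1B summits met ARID1B at E15.5 in 91.7% and TCF7L2 in 55.1%. The TCF7L2 list at E15.5 held 32579 autosomal peaks against 70709 for ARID1B, so the shares of different lists are not on a par, but the classes can be read within a list. FOXP1, the forkhead factor of the series, met 38.5% of distal ARID1B peaks without TCF7L2 and 59.3% of distal TCF7L2 peaks without ARID1B at the earlier stage. Over all heights, these shares were 42.0% and 43.1%, so the difference between the classes depended on the band. The FOXP1 list of 24526 peaks at E18.5 met 3.23% and 13.9% in the band, and 4.22% and 8.07% over all heights.

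**Figure D5:**
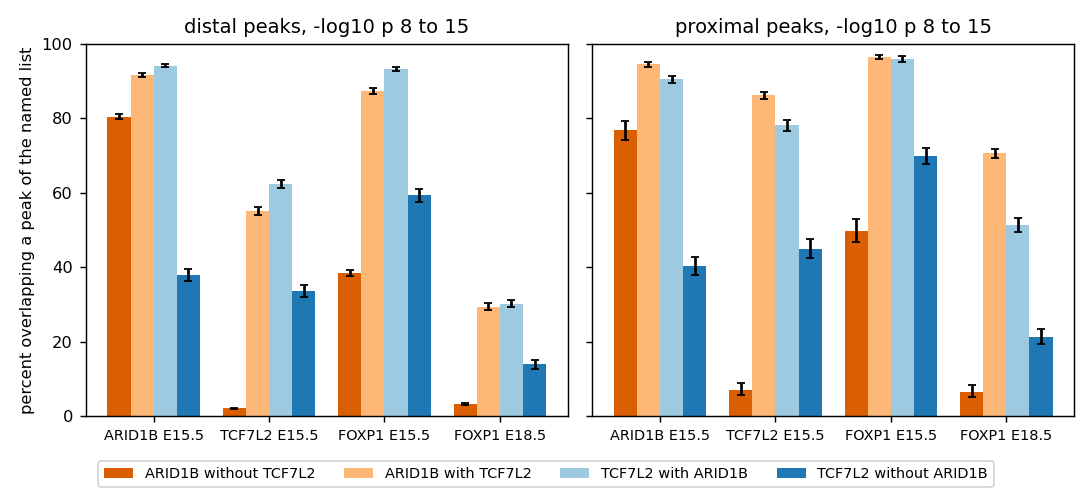
Share of peaks with a −log10 p of 8 to 15 that overlapped a peak of 4 other lists (percent, vertical axis), in distal (left) and proximal (right) peaks of the 4 sets, with 95% Wilson intervals. Distal ARID1B peaks without TCF7L2 met TCF7L2 at E15.5 in 2.08% and ARID1B at E15.5 in 80.5%.

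Promoter classes of genes were followed to E15.5, where the TCF7L2 list is the shorter one, so the shares of the 2 targets are not set against each other. Of the 221 genes with ARID1B only, 137 (62.0%, 55.4 to 68.1) had ARID1B only at E15.5, 16 had both, 3 had TCF7L2 only, and 65 had neither. Of the 951 genes with TCF7L2 only, 179 (18.8%, 16.5 to 21.4) had TCF7L2 only at E15.5, 271 had both, 145 had ARID1B only, and 356 had neither. Among all 20807 genes at E15.5, 3.30% had ARID1B only and 1.55% had TCF7L2 only. Genes with both at E18.5 had both at E15.5 in 96.1% of cases.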

How the data were processed

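The labels give mouse cortex ChIP-seq and input libraries, with BWA 0.7.15, SAMtools, and MACS2 2.2.7 in the submitters' processing notes. Per the study's methods, the authors mapped reads to GRCm38, filtered at a mapping quality of 30, merged replicates, and called narrow peaks at q 0.01 against input, with a constant background and 200 bp extension. Treatment of duplicates was not given in the sources used here. Of the columns, the deposited fold enrichment is a ratio of summit to background reads, and the deposited −log10 p-value and −log10 q-value belong to the same summit. Peaks outside chromosomes 1 to 19 were left out (685 for ARID1B, 624 for TCF7L2).

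The background rate was recovered from pairs of fold enrichment and p-value (within 0.01 for 100% of ARID1B and 99.99% of TCF7L2 peaks), which gives reads per summit and, with the MACS2 mouse genome size of 1.87e+09 and no rescaling, 57.3 and 76.1 M ChIP reads. Overlaps, GENCODE vM21 promoters, nearest TSSs, ranks, and motif matches were computed with Python 3.11.15, numpy 2.4.6, pandas 2.3.3, and scipy 1.17.1, and were tested on simulated data. No test across conditions was run, since each target has 1 merged list. Named genes follow a rule of height, rank difference, peak number, or list membership. The members, gene lists, and rules were chosen with earlier results of these data known. The Wnt site count, histone genes, and the rule of no overlap anywhere were chosen after values were seen. Some members that meet these rules are not reported here.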

Additional observations from a re-analysis of the deposited data

How the results depend on the processing

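No paired analysis was possible because each target has 1 list from merged replicates, and no replicate could be left out for the same reason. Requiring 50% of the shorter peak to overlap gave shared shares of 53.9% of ARID1B and 65.9% of TCF7L2 peaks, and promoter shares of 8.25% (ARID1B without TCF7L2) and 44.8% (shared loci). With summits within 200 bp, the same shares were 41.7% and 53.8%, with promoter shares of 17.2% (ARID1B without TCF7L2), 32.8% (TCF7L2 without ARID1B), and 43.2% (shared). With a −log10 p of at least 15 in both lists, shared shares were 48.4% and 72.4%, promoter shares 7.78%, 70.7%, and 70.7%, and 2454 genes had TCF7L2 only, because a lower peak of the other list then counts as absent. The 20000 strongest peaks of each list gave 57.39% and 57.36% shared, promoter shares of 6.31%, 65.4%, and 63.3%, and 108 and 4198 genes with ARID1B only and TCF7L2 only. Peaks of at least 15 against peaks of any height gave 76.2% and 97.9% shared, promoter shares of 4.38% and 53.3% of the exclusive classes, and 40 and 151 genes. A promoter of 1000 bp to either side gave 34.1% of TCF7L2 peaks without ARID1B and 46.3% of shared loci, and TSSs of coding genes alone gave 4.29%, 22.7%, and 39.7%. In every one of these settings the ARID1B class had a smaller promoter share than the TCF7L2 class. Gene counts do not use the overlap of peaks, so the overlap settings leave them at 221 and 951 by construction, and in the settings by height and promoter width fewer genes had ARID1B only than had TCF7L2 only. Of the 6 settings that gave a promoter share for shared loci too, the TCF7L2 class was below it in 4, level with it at a −log10 p of at least 15 in both lists, and above it with the 20000 strongest peaks. The rank correlation was 0.26 (proximal) and 0.23 (distal) for the 4000 strongest peaks and 0.55 and 0.29 for all peaks. Fold enrichment orders peaks as the p-value does, since the background is constant, so ranks by it changed nothing. A 100-base window lowered the E-box share of distal peaks to 22.7% (ARID1B class) and 9.12% (TCF7L2 class).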

Other observations

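Distal TCF7L2 peaks without ARID1B stood in dense runs at a few places. Around Ccdc192, 33 of them lay within 61.4 kb of chromosome 18 with fold enrichments up to 4.05, and the same span held 37 TCF7L2 peaks in all and 4 ARID1B peaks at E18.5, and 19 TCF7L2 and 4 ARID1B peaks at E15.5. Around Dnah8, 56 lay within 238 kb (chr17:30636139-30873969), where the lists held 111 TCF7L2 and 50 ARID1B peaks at E18.5 and 50 and 63 at E15.5. Around Gse1, 63 lay within 345 kb, with 160 TCF7L2 and 107 ARID1B peaks at E18.5 and 95 and 109 at E15.5.

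Of the 7487 genes with neither target at E18.5, 110 had ARID1B only and 33 had TCF7L2 only at E15.5, and 14 had both.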
